A study of Mus musculus with 8 samples.

Results

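The alpha-defensin family was followed in 8 RNA sequencing libraries of sorted mouse intestinal epithelium. Its members were the 18 rows of the expression table whose symbol begins with Defa and 4 gene models of the same gene cluster, Gm14850, Gm15293, Gm10104 and Gm15315, which makes 22 of 24013 gene symbols. All mice carried Lyz1CreER and R26R-tdT on a mixed C57/BL6 and 129 background, were 8 to 14 weeks old and had received a single 10 mg dose of tamoxifen, so that cells with Lyz1 promoter activity at that time, and their progeny, were marked by tdTomato. Viable EpCAM+ CD45- tdTomato+ cells were split by the surface protein CD24. CD24+ cells, which the labels call Paneth cells, gave 2 libraries without irradiation and 3 libraries from mice sorted 5 days after irradiation. CD24- cells, labelled derivatives, gave 3 libraries, all from irradiated mice at the same time. Without a non-irradiated CD24- group, gate and irradiation cannot be told apart where CD24- cells are set against non-irradiated CD24+ cells. Whether replicates are separate mice is not stated in the labels, and p-values therefore cover only the spread between these samples.

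Alpha-defensins, called cryptdins in the mouse gut, are small cationic peptides held in shape by disulfide bonds that kill bacteria by disrupting their membranes. Paneth cells at the crypt base make them as inactive proforms, which in the mouse are cut by the metalloprotease Mmp7, store them in large granules and release them into the crypt lumen. Wnt signalling through beta-catenin and TCF factors is known to drive their transcription. The mouse genes lie in a cluster of recent duplicates whose content differs between inbred strains, and the genotype of the mixed-background mice at this cluster was not tested.

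The close relation between members limits how finely their RNA can be read, and it is shown here with the sequences of a few of them. RefSeq and GENCODE entries for the GRCm38 genome, on chromosome 8, were found for 20 of the 22 members, 14 by symbol and 6 by an older symbol. The exceptions were Defa4 and Defa6, so their overlap with other copies could not be measured. Among the 17 members with a coding sequence, the 136 pairs were 63.9% to 100% identical, with a median of 83.6%. The coding sequences of Defa3 and Defa17 were identical, as were those of Defa23 and Defa-rs7, while Defa2 and Defa20 were 99.7% and Defa21 and Defa22 99.3% identical. Every 50-base stretch of the Gm14850, Defa-rs7, Defa2 and Defa20 transcripts also occurs in another gene, against 28.1% of those of Defa24. Values of single members are therefore uncertain where reads could be divided among copies, and sums over copies are given beside them.

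The coding sequences of Gm10104 and Gm14850, each 282 bases long, are shown because these close relatives behaved differently in the expression table. Capitals mark the bases at which they differ, which are T44A, T168A and A177T, with the Gm10104 base first and positions counted from 1 at the start codon.
Gm10104: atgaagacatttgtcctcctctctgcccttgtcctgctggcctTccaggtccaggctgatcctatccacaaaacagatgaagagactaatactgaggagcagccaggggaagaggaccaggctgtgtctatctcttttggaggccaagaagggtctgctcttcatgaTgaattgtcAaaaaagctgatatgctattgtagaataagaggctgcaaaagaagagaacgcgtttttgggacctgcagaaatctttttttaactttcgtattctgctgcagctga
Gm14850: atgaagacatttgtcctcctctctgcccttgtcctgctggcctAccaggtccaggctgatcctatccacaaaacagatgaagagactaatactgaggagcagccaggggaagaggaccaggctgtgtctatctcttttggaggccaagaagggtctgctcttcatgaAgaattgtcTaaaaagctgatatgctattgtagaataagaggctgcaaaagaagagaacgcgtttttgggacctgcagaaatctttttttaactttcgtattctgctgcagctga

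Upstream windows of 250 bases ending just before the annotated start are given for Gm10104 (chr8:21064788-21065037), Gm14850 (chr8:21565136-21565385), Defa23 (chr8:21054790-21055039) and Defa2 (chr8:21378267-21378516), all on the plus strand in RefSeq GRCm38.p6. They are shown because the members moved together between the gates, and because they differ in the TCF-type motif. Capitals mark matches to CTTTGAA, to its form CTTTGAT with a changed last base, to CTTTGTA with a changed base before it, or to CTTTGTT with both changed, on either strand, and the motifs exclude each other at any given start.
Gm10104: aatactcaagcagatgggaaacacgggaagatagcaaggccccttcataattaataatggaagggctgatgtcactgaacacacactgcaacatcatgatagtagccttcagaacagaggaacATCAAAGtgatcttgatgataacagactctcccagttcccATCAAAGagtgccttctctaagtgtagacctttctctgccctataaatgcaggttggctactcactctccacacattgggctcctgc
Gm14850: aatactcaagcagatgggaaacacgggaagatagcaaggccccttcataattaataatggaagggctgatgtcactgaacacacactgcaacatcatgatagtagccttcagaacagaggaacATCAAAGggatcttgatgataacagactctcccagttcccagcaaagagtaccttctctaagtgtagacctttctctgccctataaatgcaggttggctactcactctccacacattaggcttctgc
Defa23: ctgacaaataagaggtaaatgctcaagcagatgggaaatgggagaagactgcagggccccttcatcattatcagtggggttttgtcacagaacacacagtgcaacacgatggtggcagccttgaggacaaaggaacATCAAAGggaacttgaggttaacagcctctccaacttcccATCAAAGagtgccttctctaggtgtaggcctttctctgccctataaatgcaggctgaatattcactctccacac
Defa2: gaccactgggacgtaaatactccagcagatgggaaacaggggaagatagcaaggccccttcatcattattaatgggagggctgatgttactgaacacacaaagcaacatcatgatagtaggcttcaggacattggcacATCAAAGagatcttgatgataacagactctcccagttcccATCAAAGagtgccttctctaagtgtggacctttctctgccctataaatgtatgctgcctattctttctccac

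All 9 members with an entry in the promoter table held at least 1 such match (100%), against 4874 of 32851 promoters (14.8%). The member windows are not independent: those of Defa23 and Defa-rs7, of Defa2 and Defa20, and of Defa21 and Defa22 are 100% identical. Those of Gm10104 and Gm14850 are 98.0% identical. The shares are therefore no test of enrichment. Gm14850 had 1 match and the other 8 members had 2, all reading ATCAAAG on the plus strand. Between Gm10104 and Gm14850 the window differed at 5 positions counted from its 5′ end, T131G, T165G, G174A, G241A and C246T, and T165G falls in the motif copy nearer the start. These are letters in a sequence and were not tested as binding sites. The window of Gm21498, a further alpha-defensin row described below, is identical to that of Gm14850 and also had 1 match. Gm21498 was at 59285 to 75578 FPKM in CD24+ libraries. Defa2 and Defa20, whose windows are identical, were at 47217 to 99704 and 0.294 to 12.2 FPKM in the same libraries. The relation of motif number to level was not tested.

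The alpha-defensin members held most of the summed FPKM in CD24+ cells and little of it in CD24- cells. Levels are in FPKM, that is fragments per length of transcript and per amount of mapped fragments, so levels of different genes can be compared. Because of the division by length, a share of summed FPKM is not a share of fragments or of RNA mass. The 22 members together reached 967737 and 766547 FPKM in the non-irradiated CD24+ libraries (867142 ± 142262, SD, n = 2) and 771744, 666766 and 688097 FPKM in the irradiated CD24+ libraries (708869 ± 55486, SD, n = 3). The irradiated CD24- libraries held 52079, 13813 and 6711 FPKM (24201 ± 24403, SD, n = 3). Every CD24+ library was far above every CD24- library, the CD24+ groups overlapped, replicate 1 of the irradiated group lying slightly above replicate 2 of the non-irradiated group, and the CD24- libraries spread widely, with replicate 1 highest.

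As a share of all FPKM in a library, the family took 59.1% and 53.4% in non-irradiated CD24+ cells, 54.0%, 50.2% and 51.1% in irradiated CD24+ cells, and 8.94%, 2.37% and 1.24% in irradiated CD24- cells. FPKM outside the family summed to between 658167 and 670610 in the 5 CD24+ libraries and to between 530720 and 568580 in the CD24- libraries. The table also held 11 further alpha-defensin rows under other symbols (AY761184, Gm14851, Gm15284, Gm15292, Gm15299, Gm15308, Gm21002, Gm21498, Gm6696, Gm7849 and Gm7861), found in the annotation after the values were seen. With them the share of all FPKM was 74.9% to 84.7% in CD24+ libraries and 12.8%, 3.48% and 1.82% in CD24- libraries. These rows contributed a nearly constant 30.2% to 33.1% of the wider sum in all 8 libraries.

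**Figure D1:**
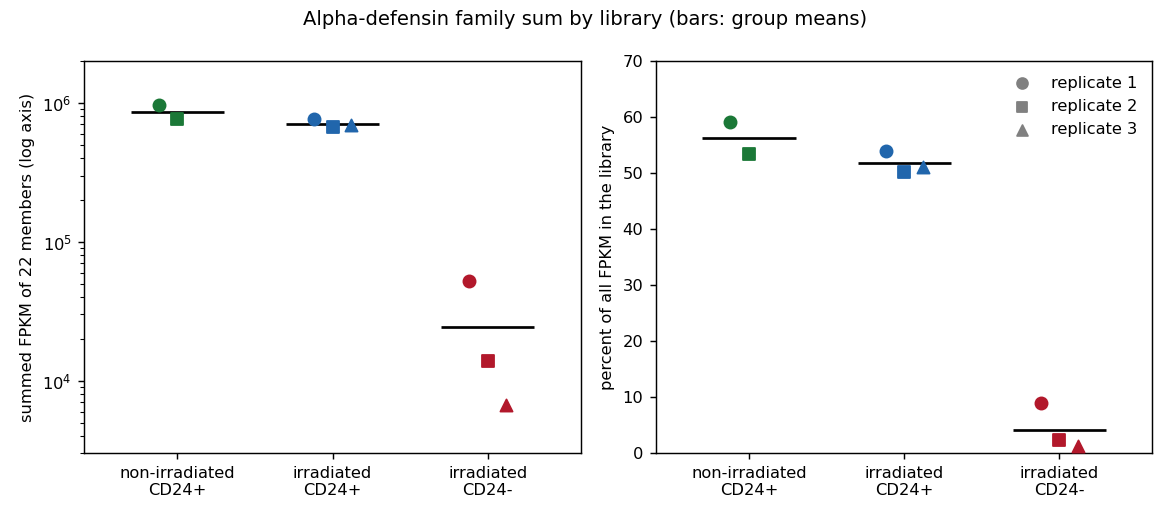
Left, summed FPKM of the 22 alpha-defensin members in each library (points, log axis), and right, their share of all FPKM in percent, by group, with horizontal lines at the group means and replicates marked by shape. The 5 CD24+ libraries lie between 666766 and 967737 FPKM, and the 3 CD24- libraries between 6711 and 52079 FPKM.

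The log2 family sum was lower by a difference of -0.28 after irradiation within the CD24+ gate, and the difference of CD24- from CD24+ cells after irradiation was -5.39. These differences carry no test. Among the CD24+ libraries, non-irradiated replicate 1 stood apart: 9362 genes reached 1 FPKM in it, against 10293 to 10555 in the others, and its median-of-ratios scaling factor was 0.528 against 0.859 to 0.993. Without it the difference between the CD24+ groups was -0.12, and without non-irradiated replicate 2 it was -0.45. Scaling by the median of gene ratios gave -0.75. Leaving out single libraries moved the difference between the irradiated gates over a range of -6.20 (without CD24- replicate 1) to -4.72 (without CD24- replicate 3). Scaling changed it to -4.12 with TPM, which equalises the sum of all FPKM, and to -5.96 with median-of-ratios scaling.

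Labels were read against markers. The gated gene Cd24a was at 621 to 750 FPKM in CD24+ libraries and 37.4 to 117 in CD24- libraries, and Epcam, 139.7 to 735.5 FPKM, was present in every library. The 6 leukocyte markers summed to 184 to 523 FPKM in CD24+ and 6.24 to 39.8 FPKM in CD24- libraries. Most of that in every library was the lysozyme gene Lyz2, at 182 to 523 and 3.43 to 35.9 FPKM. Ptprc, which encodes CD45, stayed at or under 0.539 FPKM in every library, while Itgam was at 0.295 to 0.869 FPKM in CD24+ and 2.39 to 2.91 FPKM in CD24- libraries. Lyz1, the Paneth lysozyme behind the lineage label, was at 48892 and 19016 FPKM without irradiation, 36444, 33765 and 31456 FPKM in CD24+ cells after it, and 2576, 814 and 384 FPKM in CD24- cells. All 8 measured Paneth markers other than defensins were above 0 in every group, and their summed level was 78091 to 110453, 82176 to 86740 and 12317 to 15039 FPKM in the same order of groups. In CD24- cells most of that sum was Reg3g, a lectin of enterocytes as well, at 8230 to 13010 FPKM. The 8 enterocyte markers summed to 431 to 2097, 698 to 1218 and 14827 to 33422 FPKM, and the 6 goblet markers to 1903 to 2620, 2573 to 3225 and 5143 to 9301 FPKM. The 8 enteroendocrine markers summed to 143 and 148 FPKM without irradiation, then to 273, 854 and 1148, then to 405, 1266 and 3615. The 8 tuft markers summed to 21.9 and 29.3 FPKM, then to 9.30, 16.7 and 6.22, then to 1.66 to 3.17. The 4 crypt base stem cell markers summed to 499 and 757 FPKM, then to 1128, 1035 and 910, then to 392, 282 and 43.2. The enteroendocrine, tuft and stem cell lists did not overlap between the CD24+ groups, while the Paneth, enterocyte and goblet lists did. How many of all genes were separated in this way was not counted, and the separation of so few libraries is not a test. Fewer Paneth cells and less defensin RNA per cell cannot be told apart in these bulk samples, and the part of the other cell types in the results was not tested.

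Of the 22 members, 16 averaged 1000 FPKM or more in irradiated CD24+ cells. Gm14850 and Defa25 lay between 50 and 1000 FPKM, Defa-rs7 and Defa20 under 50 FPKM, and the pseudogenes Defa-ps12 and Defa-ps13 were listed at 0 in every library. The other 20 passed the filter of 1 FPKM in at least 2 libraries. All values below are given in the order non-irradiated CD24+ replicates 1 and 2, irradiated CD24+ replicates 1 to 3 and irradiated CD24- replicates 1 to 3. The orders of libraries described are not tests, and the share of all genes with the same order was not counted.

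The cryptdins Defa6 and Defa24 were the most abundant members, although sharing of reads with copies could not be assessed for Defa6, which had no annotation entry. Defa6 had 216364 and 208399 FPKM, then 184646, 146158 and 182211, then 11720, 3758 and 1652. Defa24 had 187744 and 180183 FPKM, then 141490, 129334 and 124942, then 10727, 2789 and 1576. In both genes each non-irradiated library was above each irradiated CD24+ library, and each of those was above each CD24- library. Together they formed 41.3% to 50.7% of the family sum over the 8 libraries.

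Defa17, Defa3 and Defa23, which share nearly all of their coding sequence, formed the next tier. Defa17 had 85655 and 66879 FPKM, then 59930, 65953 and 71902, then 4109, 1422 and 769. Defa3 followed it closely, with 85033 and 63970 FPKM, then 59877, 65014 and 66829, then 3941, 1332 and 697. Defa23 had 80684 and 60248 FPKM, then 59844, 59601 and 71084, then 3494, 1164 and 595. The CD24+ groups overlapped in all 3 genes, and the CD24- libraries lay below both. The ratio of Defa3 to its coding twin Defa17 stayed between 0.906 and 0.999.

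Defa2 had 99704 and 56162 FPKM, then 71717, 59297 and 47217, then 5189, 984 and 451. Defa21 had 64463 and 33530 FPKM, then 54330, 34308 and 28349, then 3516, 560 and 216. Its near copy Defa22 had 59748 and 34100 FPKM, then 46715, 30073 and 25630, then 3345, 538 and 199. In these 3 genes replicate 1 was the highest library of each of the 3 groups and the CD24+ groups overlapped. The ratio of Defa21 to Defa22 ranged from 0.983 to 1.16. The 8 genes described so far made up 87.9% to 91.8% of the family sum.

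The gene models of the Defa5 set, at least 97.5% identical to one another in coding sequence, were expressed at lower levels. Gm15315 had 18205 and 12528 FPKM, then 21120, 15984 and 14770, then 1022, 293 and 107. Gm10104 had 7340 and 4976 FPKM, then 8861, 5922 and 5630, then 417, 79.0 and 39.0. Gm15293 had 3461 and 2538 FPKM, then 3514, 3084 and 2955, then 135, 27.0 and 7.50. The CD24+ groups overlapped for all 3, and the CD24- libraries were lower. Gm14850 had 4.37 and 1.83 FPKM, then 170, 172 and 141, then 14.8, 3.25 and 0.0483. Both non-irradiated libraries were far below all 3 irradiated CD24+ libraries, and the CD24- values overlapped the non-irradiated ones.

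Defa4, also a cryptdin, had 3773 and 2976 FPKM, then 5043, 5182 and 3869, then 294, 0.107 and 31.9. Here both non-irradiated libraries were below every irradiated CD24+ library, and CD24- replicate 2 was nearly empty. The pseudogene Defa-ps1 had 825 and 491 FPKM, then 885, 1286 and 1290, then 50.4, 30.9 and 10.4, with the same order of groups. Defa25 had 117 and 45.5 FPKM, then 70.5, 75.7 and 58.8, then 3.59, 1.31 and 0. Its CD24+ groups overlapped.

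Defa-rs7, identical to Defa23 in coding sequence, had 0.226 and 6.80 FPKM, then 0.160, 6.90 and 6.28, then 0.224, 0.109 and 0.00476. Each CD24+ group held a low library and at least 1 higher library, and CD24- replicate 1 overlapped irradiated CD24+ replicate 1. Defa20 had 0.386 and 0.352 FPKM, then 0.294, 12.2 and 0.327, then 1.02, 0.00855 and 0.00255. Only irradiated CD24+ replicate 2 was clearly above 1 FPKM. Defa5 and Defa26 followed the abundant members: Defa5 ranged from 24200 to 34357 FPKM over the CD24+ libraries and from 243 to 2716 over the CD24- libraries and Defa26 from 3516 to 6463 and from 34.5 to 283.

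**Figure D2:**
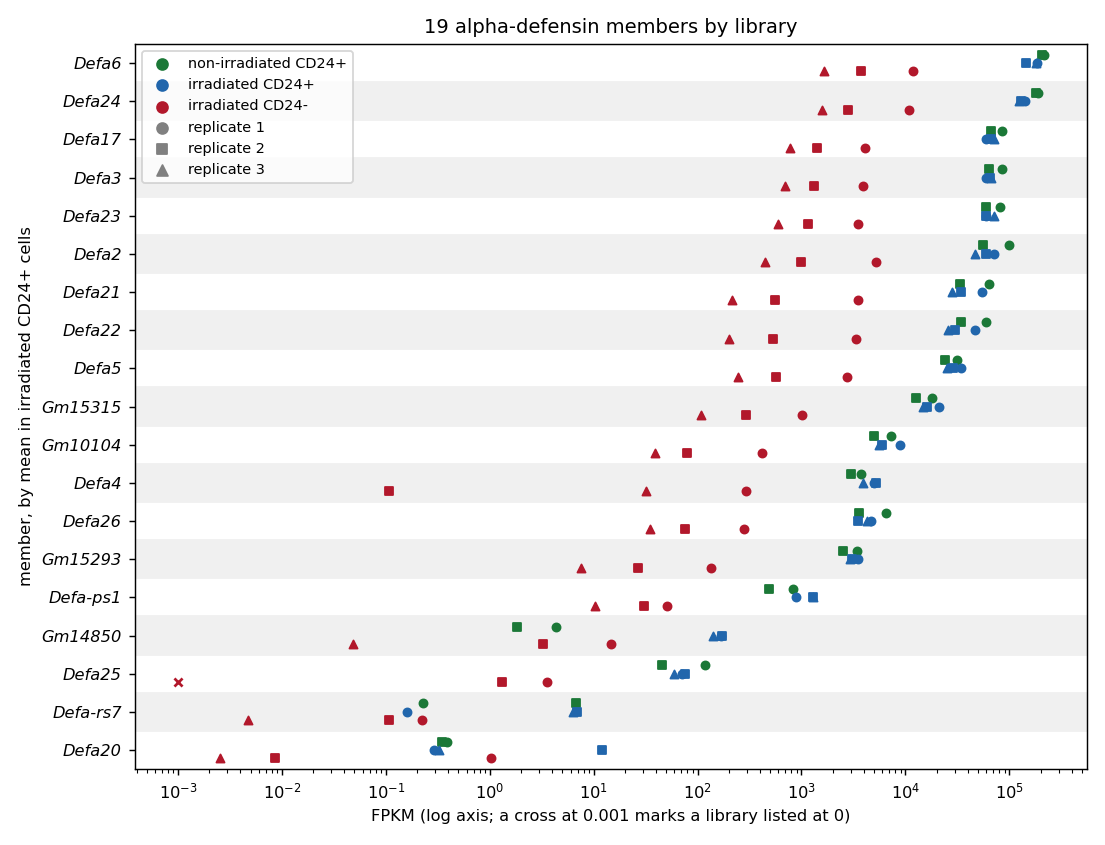
FPKM of 19 members in each library, on a log axis, with groups marked by colour. Apart from Gm14850, Defa-rs7 and Defa20, each member shown is lower in all 3 CD24- libraries than in all 5 CD24+ libraries.

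In irradiated against non-irradiated CD24+ cells, none of the 20 tested members passed limma at a Benjamini-Hochberg adjusted p under 0.05. Of all 11190 genes tested, 0 passed (0%), so the absence of calls does not set the family apart. The members' log2 fold changes were positive in 9 and negative in 11, with a median of -0.10 against 0.32 over all genes, and 1 member, Gm14850, had an unadjusted p under 0.05. Members negative numbered 8 when scaled to TPM, where the median was 0.06 against 0.41, and 15 with median-of-ratios scaling, where it was -0.57 against -0.03. The smallest p belonged to Gm14850, with a log2 fold change of 5.37 ± 0.81 (SE; limma adjusted p = 0.103). Defa-ps1 (0.83 ± 0.54, limma adjusted p = 0.356) and Defa20 (1.05 ± 0.79, limma adjusted p = 0.394) came next. SE here and below is limma's moderated standard error on the log2(FPKM + 1) scale.

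Gm14850 has a far more abundant copy. Over 17 alternative settings its log2 fold change ran from 4.91 to 5.91 and its limma adjusted p from 3.38e-10 to 0.356, and it passed in 5 of them. The Gm14850 transcript, 403 bases long, is contained whole in that of Gm21498, 420 bases long, and the coding sequences and 250 upstream bases of the pair are identical. Gm21498, one of the further alpha-defensin rows, had 71148 and 62534 FPKM, then 75578, 65758 and 59285, then 4988, 1246 and 536. Gm21498 exceeded Gm14850 by 16263-fold and 34157-fold in the non-irradiated libraries, by 446-fold, 383-fold and 421-fold in the irradiated CD24+ libraries, and by 336-fold, 383-fold and 11096-fold in the CD24- libraries. Summed, the pair had 71153 and 62535 FPKM, then 75747, 65929 and 59426, and the log2 fold change of the sum was -6.09e-05 (limma adjusted p = 0.9999). This sum is set by Gm21498 and does not show whether Gm14850 itself changed. How reads were divided between the pair was not tested.

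Defa20 and Defa-rs7 likewise sat beside far more abundant copies. The ratio of Defa2 to Defa20 ranged from 4875 to 257990 over the 8 libraries, and that of Defa23 to Defa-rs7 from 8636 to 373244. Sums of these pairs are therefore set by the abundant copy and say nothing of the rare one.

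Between the irradiated gates nearly every member of the family was lower in CD24- cells. Of the 20 tested members, 19 fell (limma adjusted p under 0.05) and none rose, while 7.27% of all tested genes were called lower and 48.6% higher. The members' median log2 fold change was -5.45 against 0.51 over all genes. For 18 of the 22 members every CD24- library was below every irradiated CD24+ library. The share of all genes separated in this way was not counted. The gap between these medians was -5.96, and it was -5.82 with TPM scaling, which moved the median of all genes to 1.60, and -6.04 with median-of-ratios scaling, which moved it to 0.04. The count of members called was 19 with TPM, where 2.32% of all genes were called lower, and 18 with median-of-ratios scaling, where 24.4% were.

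The largest fold change was that of Defa4, which fell by 7.72 ± 1.44 on the log2 scale (limma adjusted p = 0.00091). It rested on unequal libraries, with -9.59 without CD24- replicate 1 and -5.56 without CD24- replicate 2. Gm15293 fell by 6.64 ± 0.75 (limma adjusted p = 3.67e-05) and Gm10104 fell by 5.92 ± 0.70 (limma adjusted p = 5.00e-05) on the log2 scale. The abundant Defa6 and Defa24 had log2 fold changes of -5.35 ± 0.84 and -5.19 ± 0.81, both of which lost their call when no filter on low values was used (limma adjusted p = 0.148 and 0.118). Defa17, Defa3 and Defa23 had values of -5.32, -5.37 and -5.56, and Defa2, Defa21 and Defa22 of -5.47, -5.64 and -5.54. Gm15315 and Gm14850 had log2 fold changes of -5.74 and -5.29. Defa5, Defa26 and Defa-ps1 lay between -5.48 and -5.34. The smallest changes were in members of low level.

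Defa25 fell by 4.97 ± 0.48 on the log2 scale (limma adjusted p = 1.42e-05). Defa-rs7 had a log2 fold change of -1.87 ± 0.73 (limma adjusted p = 0.0472) that was called in 10 of 17 alternatives, with an adjusted p of up to 0.158, and that lost its call without irradiated CD24+ replicate 2 or 3 or without any single CD24- library (limma adjusted p of 0.0613 to 0.142). Defa20, the member not called, had a log2 fold change of -1.16 ± 0.71 (limma adjusted p = 0.189). With the replicate number as a block it passed (limma adjusted p = 0.0145), which makes 20 of 20, and without irradiated CD24+ replicate 1 it passed at 0.0484.

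**Figure D3:**
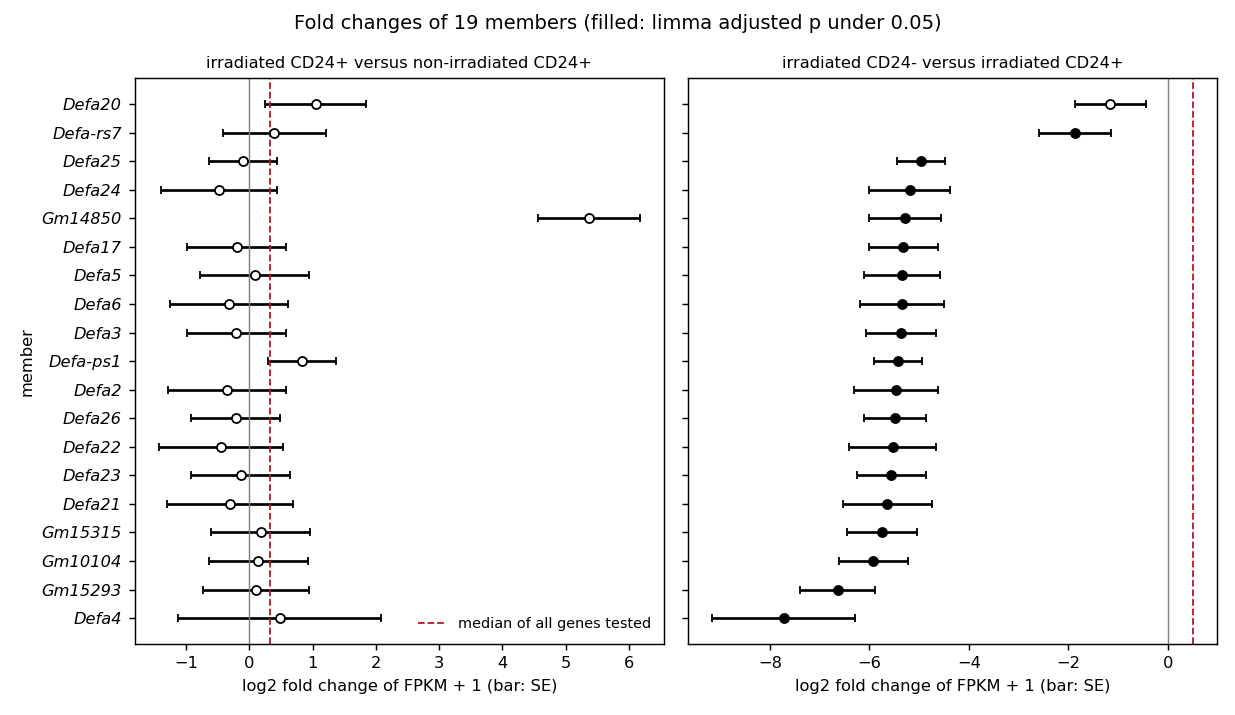
Log2 fold changes of 19 of the tested members with limma SE (bars; filled points passed, the dashed line is the median of all genes) for irradiated against non-irradiated CD24+ cells and for irradiated CD24- against irradiated CD24+ cells. In the gate comparison all points are negative, from -7.72 (Defa4) to -1.16 (Defa20), and in the irradiation comparison they lie around 0 except Gm14850 at 5.37.

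Against non-irradiated CD24+ cells, 17 of the 20 tested members fell in irradiated CD24- cells, where 4.99% of all genes were called lower. Defa-rs7, Defa20 and Gm14850 were not called (limma adjusted p = 0.123, 0.907 and 0.930). This comparison shares its libraries with both others, and the log2 family sum differed by -5.67. With the replicate block 18 members were called, Defa-rs7 being the addition (limma adjusted p = 0.00061).

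The amount of defensin RNA found in CD24- libraries differed between the libraries and, within a library, between members. For the 16 abundant members, the median level relative to the irradiated CD24+ mean was 6.54% in CD24- replicate 1, 1.76% in replicate 2 and 0.791% in replicate 3. In replicate 1 the members ran from 4.23% (Gm15293) to 9.80% (Defa22). In replicate 2 they ran from 0.00228% (Defa4) to 2.68% (Defa-ps1), and in replicate 3 from 0.236% (Gm15293) to 1.19% (Defa24). The order of the libraries was the same for Lyz1, at 2576, 814 and 384 FPKM, for Cd24a, at 117, 77.7 and 37.4 FPKM, and for the 4 crypt base stem cell markers, which summed to 392, 282 and 43.2 FPKM. The part of these in the defensin level of the CD24- libraries was not tested, nor was its source, whether the sorted cells themselves or carried-over CD24+ cells.

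The larger parts of the family sum were similar in both irradiated gates, but not every member's share was. In CD24+ and then CD24- cells after irradiation, Gm15293 took 0.455%, 0.462% and 0.429%, then 0.258%, 0.195% and 0.112%. Gm10104 took 1.15%, 0.888% and 0.818%, then 0.801%, 0.572% and 0.581%. Defa24 went the other way, with 18.3%, 19.4% and 18.2%, then 20.6%, 20.2% and 23.5%. None of these members passed in the main fit relative to the family, given below. Members were regrouped into copy sets, joined at 97% or more coding identity, a limit chosen after the identities were seen. The set of Defa3, Defa17, Defa23 and Defa-rs7 took 26.0% and 24.9% of the family sum, then 23.3%, 28.6% and 30.5%, then 22.2%, 28.4% and 30.7%. Defa21 with Defa22 took 12.8% and 8.82%, then 13.1%, 9.66% and 7.84%, then 13.2%, 7.95% and 6.18%. Irradiated libraries with the same replicate number thus resembled each other across the gates: replicate 1 was lowest in the Defa3 set and highest in the Defa21 set in both gates, and replicate 3 the reverse. Defa2 with Defa20 followed the Defa21 set, at 9.29%, 8.90% and 6.86% in irradiated CD24+ cells and 9.97%, 7.12% and 6.72% in CD24- cells. Whether same-numbered libraries share a mouse is not stated in the labels.

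The Defa5 set, Defa5 with the 4 gene models, took 6.24% and 5.77% of the family sum in non-irradiated CD24+ cells, 8.81%, 8.06% and 7.10% in irradiated CD24+ cells and 8.27%, 7.01% and 5.90% in CD24- cells. Both non-irradiated shares lay below all 3 irradiated CD24+ shares, with no test of this difference. Defa4 had the same order of CD24+ groups, with 0.390% and 0.388%, then 0.653%, 0.777% and 0.562%. Defa24 lay the other way, with 19.4% and 23.5% in non-irradiated cells, then 18.3%, 19.4% and 18.2%, and its highest irradiated library lay just under the lowest non-irradiated one.

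**Figure D4:**
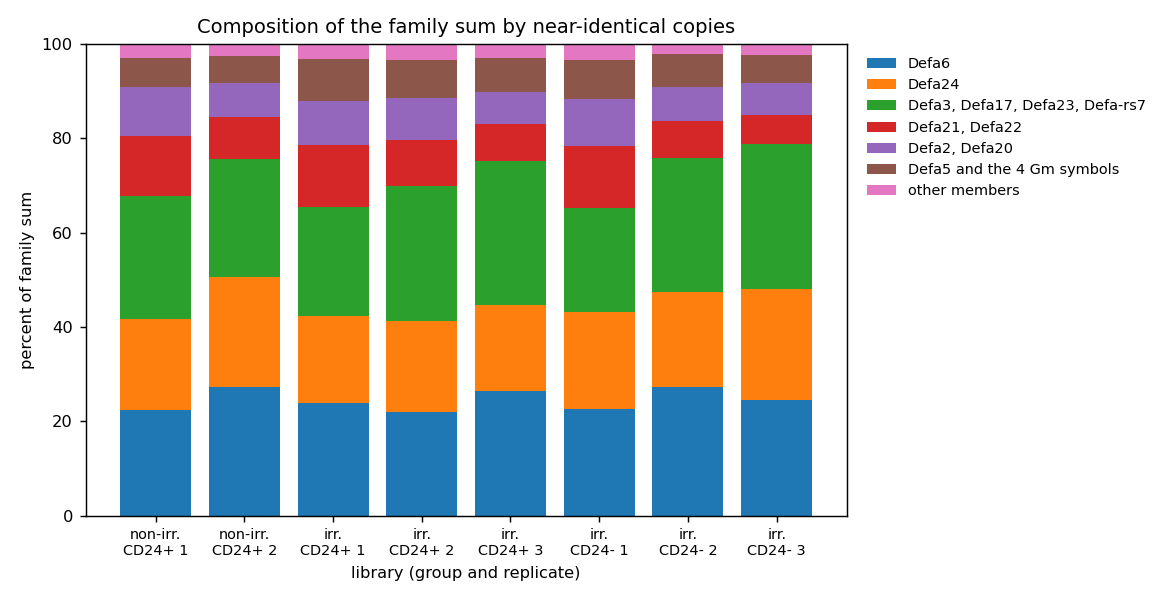
Share of the family sum taken by each copy set in the 8 libraries, in percent. The set of Defa3, Defa17, Defa23 and Defa-rs7 takes 22.2% to 30.7% in every library, and same-numbered irradiated libraries have similar shares, such as 13.1% and 13.2% for Defa21 with Defa22 in replicate 1.

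Whether a member moved apart from the family was tested by dividing each library by its family sum before the fit. In this fit the SE came from the trend shared by genes of similar level, so SE and p-values do not reflect a member's own spread. Between the CD24+ groups 1 of the 20 tested members departed, and it was the sole gene called among all tested (0.00894%). This was Gm14850, with a log2 fold change relative to the family of 5.41 ± 0.98 (limma adjusted p = 0.00042), and no member was called when any single CD24+ library was left out or when no filter on low values was used. Between the irradiated gates 2 members fell relative to the family, against 0.0357% of all genes called lower and 98.7% higher on this scale. Defa4 fell by 3.36 ± 0.78 on the log2 scale (limma adjusted p = 1.52e-05) and Defa25 fell by 2.03 ± 0.87 (limma adjusted p = 0.0203). Defa4 lost this call without CD24- replicate 2, and Defa25 lost it without any other single irradiated library except CD24- replicate 1. The count was 4 without CD24- replicate 1, with Gm14850 and Gm15293 added, 1 without any other single irradiated library, and 3 with the replicate block, with Gm15293 added (limma adjusted p = 0.0175). Defa4 took 0.564%, 0.000776% and 0.475% of the family sum in the CD24- libraries, so that only replicate 2 was far below the irradiated CD24+ shares.

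**Figure D5:**
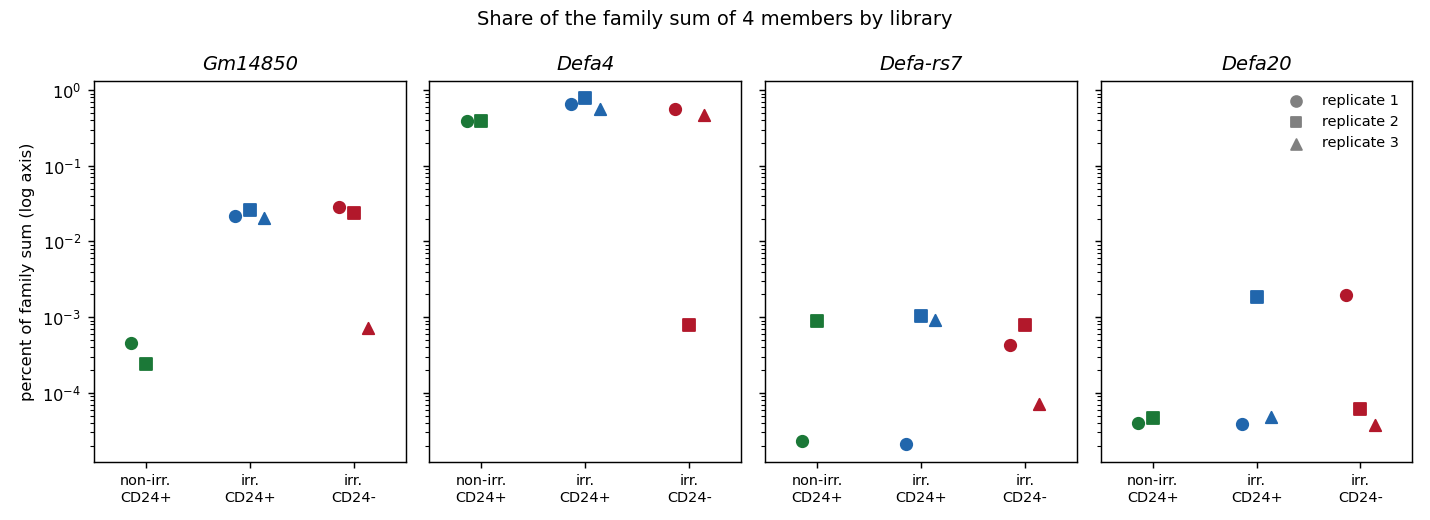
Share of the family sum, in percent on a log axis, of Gm14850, Defa4, Defa-rs7 and Defa20 in each library, by group and with replicates marked by shape. Gm14850 is at 0.000452% and 0.000239% in the non-irradiated libraries against 0.0205% to 0.0258% in irradiated CD24+ cells, and Defa4 is at 0.000776% in CD24- replicate 2 alone.

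Genes that process, regulate or release defensins were taken from a list of 36, of which 32 were tested. The exceptions were Lef1, Nod2, Tlr9 and Lrrk2. The list also held the Paneth lectin Itln1, which is not such a gene. Between the irradiated gates Itln1 fell by 5.03 ± 0.64 on the log2 scale (limma adjusted p = 8.08e-05), and it is included in the counts. Mmp7, the protease that activates the mouse proforms, had 2165 and 4093 FPKM in non-irradiated cells, then 3307, 3851 and 4576, then 349, 158 and 130 in CD24- cells. The CD24+ groups overlapped (log2 fold change 0.38 ± 0.50, limma adjusted p = 0.581), while CD24- libraries were lower than all of them, and Mmp7 fell by 4.32 ± 0.44 on the log2 scale between the irradiated gates (limma adjusted p = 2.01e-05). Between the CD24+ groups none of the 32 passed, and 3 had an unadjusted p under 0.05: the metalloprotease Mmp14, the calcium-activated potassium channel Kcnn4 and the transcription factor Gfi1, at 0.70 ± 0.26, 0.91 ± 0.40 and 0.48 ± 0.22 log2. Without non-irradiated replicate 2, 10 of the list were called higher, where 46.4% of all tested genes were.

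Between the irradiated gates 13 of the 32 fell and 11 rose, beside 7.27% of all tested genes called lower and 48.6% called higher. Besides Mmp7, the lowest p among those that fell were those of Bhlha15, a transcription factor of secretory cells, at -3.76 ± 0.34 log2 (limma adjusted p = 1.01e-05), and of the Wnt target Ephb3, at -2.84 ± 0.27 (limma adjusted p = 1.34e-05). Among those that rose, the zinc importer Slc39a4 was at 2.37 ± 0.27 log2, the vesicle fusion protein Vamp8 at 1.65 ± 0.23 and the protease Furin at 1.35 ± 0.22, and these 6 genes kept their direction and call under the 3 other scalings. The split itself moved, to 6 lower and 20 higher with TPM, to 10 lower and 14 higher with equal sums outside the family and to 15 lower and 7 higher with median-of-ratios scaling. The shares of all genes called lower and higher moved too, to 2.32% and 89.4% with TPM, to 5.44% and 61.9% with equal sums and to 24.4% and 32.4% with median-of-ratios scaling. The goblet and enterocyte marker sums given above moved with the same groups, and their part was not tested.

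The beta-defensins, a related family of epithelia, were nearly absent: 38 of 43 rows were at 0 in all libraries and 1 was tested. Defb1, the constitutive epithelial member, had 9.03 and 10.0 FPKM, then 7.88, 4.84 and 4.61, then 0.937, 0 and 0.0781. It fell by 2.37 ± 0.27 on the log2 scale between the irradiated gates (limma adjusted p = 3.55e-05), and between the CD24+ groups its log2 fold change of -0.66 ± 0.30 did not pass (limma adjusted p = 0.348).

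The genes most like the family sum over the 8 libraries, by Pearson correlation of log2 levels, were the Paneth lectin Itln1 and the further alpha-defensin rows Gm7861, Gm21498, Gm14851 and Gm7849. No coefficient is given because the libraries fall into separate clusters by gate. Itln1 had 37220 and 31347 FPKM, then 26225, 26391 and 24970, then 2030, 733 and 333, so that both CD24+ groups were apart and each CD24- library was lower. Over the 5 CD24+ libraries alone the most alike were Dio1, Gpt2, Dixdc1, Aqp8 and Hykk. That ranking rests on few points, and it includes values under the filter: Aqp8 was at 0.0501 to 0.275 FPKM in all 5, and Hykk at 0.289 to 0.575 FPKM in 4 of them.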

How the data were processed

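RNA was measured in 8 libraries from 3 groups, namely CD24+ cells without irradiation (2 libraries), CD24+ cells after it (3) and CD24- cells after it (3). The deposited table gives FPKM per gene and library as computed by the authors. TopHat2 2.1.0, StringTie 1.3.4 and the mm9 build are named per the submitters' processing notes. The annotation, the read numbers and the treatment of reads that match several copies are not given in these sources, and the kit, per the labels' protocols, keeps no strand information. The table had 24015 rows for 24013 symbols, 2 of them repeated and summed. From values under 0.3 FPKM, relative depth was 0.818 to 1.06 times that of non-irradiated replicate 2, so depth differed little.

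Genes with at least 1 FPKM in at least 2 libraries (11190) were transformed as log2(FPKM + 1), which understates changes of low genes, and fitted over all 8 libraries in limma 3.58.1 (R 4.3.3) with a group-means model and a mean-variance trend. Calls were made at a Benjamini-Hochberg adjusted p under 0.05 over all genes tested. Family sums and shares were described without a test. The procedure was tested on simulated data. Sequences came from RefSeq GRCm38.p6 and GENCODE M21 and were compared in Python 3.11.15, and since the expression table was built on mm9 no gene coordinates are given beyond the upstream windows.

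The own values of 1 member are not reported here, while the counts and sums include it. The members and lists were chosen with earlier results of these data known. Values in every library were given for the 8 most abundant members, the 4 gene models, the 3 members with the smallest p between the CD24+ groups, the 3 with the largest and the 3 with the smallest fold change between the irradiated gates, and any member not called there. From the processing list up to 3 genes per direction with the smallest p were named, and Mmp7 always. Across genes, residuals of same-numbered libraries of the irradiated gates had correlations of 0.366, 0.231 and 0.402, each above those of other numbers. No label says what the number marks. The fold changes, SE and p-values reported for that comparison come from the fit without pairing, and the replicate block was an alternative. Alternatives were a pseudocount of 0.1, no filter or a filter at 5 FPKM, only the 2 groups compared, a replicate block, TPM, median-of-ratios and equal-sum scaling, leaving out each library, and another treatment of repeated symbols. Summing near-identical copies and adding the 11 further rows were alternatives chosen after seeing the data.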

Additional observations from a re-analysis of the deposited data

How the results depend on the processing

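Of the results for counts and sums, 127 recomputed values stayed within a wide margin of those reported and 20 moved beyond it. Between the irradiated gates, 16 members called with no filter on low values counted as within the margin of 19. So did 19 genes of the processing list without irradiated CD24+ replicate 1, against 24. The TPM split of that list, 20 higher and 6 lower against 11 and 13, also counted. The tally therefore does not show that values were unchanged, and the family sum differences by setting are given above. For single genes 302 kept direction and side of the threshold, 9 lost their call, 8 gained it and 2 changed sign. Members called between the CD24+ groups numbered 1, Gm14850, with only the 2 groups compared (limma adjusted p = 7.53e-07, 0.161% of all genes called) and with the replicate block (5.91 log2, limma adjusted p = 3.38e-10, 0.822% of all genes called). The reported fit between the CD24+ groups used no pairing either. Residuals of their same-numbered libraries correlated at 0.232 and -0.0499. With 2 non-irradiated libraries, residuals from the group mean mirror each other, so these correlations cannot decide whether libraries are paired. The block changed no call of a named member between the irradiated gates other than that of Defa20. Leaving out single libraries gave 0 to 1 members called between the CD24+ groups, 0 to 10 genes of the processing list, 0 to 1 members departing from the family there and 1 to 4 between the irradiated gates. The single member came without non-irradiated replicate 2 (limma adjusted p = 0.0213, where 46.5% of all genes were called), without CD24- replicate 1 (0.00283, 0.00901% of all genes) or without CD24- replicate 3 (0.00027, 0.126% of all genes). With no filter on low values, 0 members departed between the CD24+ groups and 1 between the gates. Median-of-ratios scaling moved the family sum difference between the CD24+ groups to -0.75. The changes of sign were Gm14850 (-6.09e-05) and Defa20 (-0.35), each summed with a far more abundant copy that sets the sum, so they do not bear on the rarer gene. The cause of the other changes was not tested. A group of 2 libraries, unknown read numbers and reads shared among copies limit what can be said of single members.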
